A study of Mus musculus with 18 samples.

Results

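Bmp4, Bmpr1a, Smad6, Id1, Id2, Id3 and Id4 are a ligand, a receptor, an inhibitory Smad and the Id genes of the bone morphogenetic protein (BMP) pathway. These 7 genes, taken by name from the 18659 genes of the table of all replicate sets, were followed through 16 RNA-seq libraries of mouse embryonic stem cells (mESCs) and set against the scrambled siRNA library of the same set. The study asked what loss of Stag1, which encodes a subunit of the cohesin complex, does to the identity of mESCs. All libraries came from male E14 mESCs, an established line, grown with serum (FCS) and LIF, and RNA was depleted of rRNA. Knockdowns lasted 24 h and used siRNA to Stag1: SP (SmartPool) and 3p, a pool directed at the 3′ end of the transcript, 5p, a single duplex directed at its 5′ end, and SATS, enzymatically prepared siRNAs against transcripts from an upstream start site. The item numbers that the study lists for 3p recur among those for SP, so these pools may share siRNAs.

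Scrambled control siRNA (scr) was sequenced once in set 1, beside 3 SP libraries named 1a, 1b and 1c. In set 2 there was a single library for scr, SP, 3p, 5p and SATS and 1 more for untreated cells, which received no siRNA. Set 3 had the same 5 siRNA groups and 1 library of luciferase control siRNA. The study calls its RNA-seq replicates independent but the sources do not say whether the sets were separate cultures, and p-values measure the spread between these libraries. In whole-culture RNA, fewer cells that express a gene and less RNA per cell cannot be told apart.

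BMP ligands bind a pair of type I and type II receptor kinases, which phosphorylate Smad1, Smad5 and Smad9. These enter the nucleus with Smad4 and switch on targets, of which the Id genes and the feedback inhibitor Smad6 are the best known. Id proteins have a helix-loop-helix but no DNA-binding region, so they capture E proteins such as Tcf3 and keep them and their partners off DNA. In serum-grown mESCs, BMP4 and the Id proteins it induces are known to act with LIF to hold back neural differentiation.

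The promoters of 6 of the 7 genes were in the RefSeq table used here (build GRCm38.p6, 250 bases before to 50 after the start), and the Id2, Id3 and Smad6 sequences are shown because they hold the letters to which Smads are known to bind. The motifs were chosen after the sequences were seen, were searched on both strands and are in capitals: GTCTAGAC, a palindrome of the Smad-binding element, GGCGCC, the core of the GC-rich BMP-response element, and GTCTG or its reverse CAGAC, the short Smad box. None of the motifs contains another. Each sequence runs 5′ to 3′ on the strand of its gene: Id2 from chr12:25096043-25096342 (minus strand), Id3 from chr4:136143572-136143871 (plus strand) and Smad6 from chr9:64022010-64022309 (minus strand).
Id2: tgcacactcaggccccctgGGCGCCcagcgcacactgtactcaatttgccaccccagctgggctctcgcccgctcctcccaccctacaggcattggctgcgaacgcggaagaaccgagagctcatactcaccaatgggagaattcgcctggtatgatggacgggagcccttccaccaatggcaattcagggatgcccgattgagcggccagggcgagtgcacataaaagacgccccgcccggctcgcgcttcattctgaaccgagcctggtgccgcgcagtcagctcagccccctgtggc
Id3: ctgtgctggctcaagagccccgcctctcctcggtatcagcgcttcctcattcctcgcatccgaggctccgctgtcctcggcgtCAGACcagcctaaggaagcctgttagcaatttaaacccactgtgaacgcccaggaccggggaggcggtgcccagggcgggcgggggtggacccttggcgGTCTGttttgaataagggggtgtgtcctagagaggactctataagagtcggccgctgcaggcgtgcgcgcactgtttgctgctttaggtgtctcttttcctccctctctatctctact
Smad6: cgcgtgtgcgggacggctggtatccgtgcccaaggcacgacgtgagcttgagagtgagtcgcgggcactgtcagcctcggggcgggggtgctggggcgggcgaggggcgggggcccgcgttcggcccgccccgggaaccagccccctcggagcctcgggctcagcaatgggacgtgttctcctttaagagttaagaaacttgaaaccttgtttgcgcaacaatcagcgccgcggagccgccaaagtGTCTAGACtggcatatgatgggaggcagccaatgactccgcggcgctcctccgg

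In Smad6 the palindrome began 4 bases before the start, and it was in 0.213% of the 32851 promoters of the table. Id2, Id4 and Bmpr1a each held GGCGCC once, a motif in 11.9% of promoters. Id3 held the short box at 2 places, and 49.6% of promoters held at least 1. Bmp4 held none of these motifs. A match describes the letters only and is no evidence of binding in these cells. The Id2 and Id3 stretches shown lie inside the gene spans given below, which follow GENCODE. For these genes the RefSeq start used here is therefore downstream of the GENCODE start.

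The libraries of set 1 stood apart in depth. They held 9023224 to 14040830 reads on genes, of which the 45S rRNA precursor Rn45s took 69.2% to 79.1%, against 32137666 to 45660840 reads and 14.7% to 23.9% in sets 2 and 3. One read was worth 3.22 to 8.05 units of normalized value in set 1 and 0.353 to 0.479 units in the others, so values of set 1 carry more counting error. Stag1 was at 365 to 441 in SP, 3p and 5p of sets 2 and 3, at 947 and 1051 in SATS, and at 1619 to 2200 in the 4 control libraries. In set 1 it was at 2016 in scr and at 512 to 660 in SP. All 10 mESC markers were measured, with sums of 27680 to 69280, and none of the lists for other cell types was at 0 throughout: the summed fibroblast markers ranged from 384 to 582 in set 3, from 2665 to 3752 in the siRNA libraries of set 2 and reached 5822 in untreated cells.

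**Figure D1:**
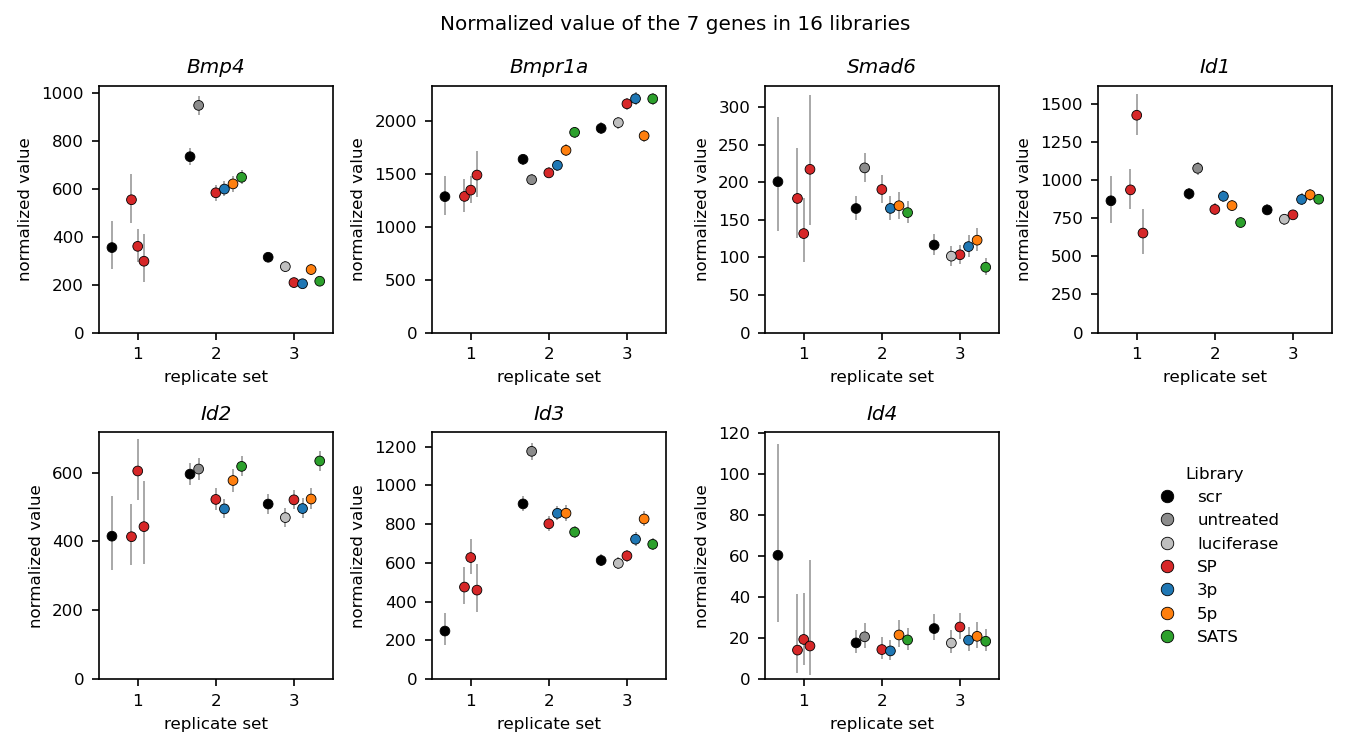
Normalized value (reads divided by the size factor of the library, vertical axis) of the 7 genes in the 16 libraries, by replicate set (horizontal axis). Points are single libraries coloured by siRNA, and bars are 95% Poisson intervals that cover counting error only. In set 2 and in set 3, the 4 knockdown libraries lay below both control libraries for Bmp4.

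Across the comparisons, Bmp4 was the gene of the 7 that was lower in each knockdown of sets 2 and 3, whereas each of the other 6 genes had at least 1 knockdown library above and 1 below the scr of its set. No member passed the test (limma on log2(value + 1), Benjamini-Hochberg adjusted p under 0.05 over all genes) in any of the 6 comparisons as first fitted, and 0 members had an unadjusted p under 0.05, where 0.526% (SP over sets 1 to 3), 2.49% (SP), 1.73% (3p), 3.63% (5p), 3.94% (SATS) and 4.09% (5p against 3p) of all genes did. After adjustment, SP against scr over sets 1 to 3 called 0% of 15970 genes, and within sets 2 and 3 the calls were 0.00606% of 16490 genes for SP, 0.00606% for 3p, 0.0121% for 5p, 0% for SATS and 0% for 5p against 3p. The quasi-likelihood test of edgeR, run on recovered reads, also called 0 members.

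The set numbers paired the libraries, and with the set as a block many more genes were called: 0% over sets 1 to 3, then 0.746% (SP), 0.285% (3p), 2.37% (5p), 2.64% (SATS) and 3.26% (5p against 3p) in sets 2 and 3. The members stayed at 0 called in these 6 fits too. At an unadjusted p under 0.05, 1 of 7 members, Bmp4, passed in each of the SP, 3p, 5p and SATS comparisons with the block, where 12.5%, 10.4%, 15.7% and 18.8% of all genes passed. The median log2 change of the 7 genes was −0.08 for SP, −0.01 for 3p, 0.02 for 5p and −0.11 for SATS, beside 0.00, 0.00, 0.01 and 0.00 over all genes.

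Bmp4, the ligand (chr14:46383520-46390669, minus strand, mm10), which shares some exonic bases with Gm15217 on the other strand, had values of 734 in scr, 584 in SP, 599 in 3p, 621 in 5p, 648 in SATS and 949 in untreated cells of set 2. In set 3 it was at 315 in scr, 209 in SP, 204 in 3p, 263 in 5p, 214 in SATS and 275 in luciferase. The 4 knockdown libraries lay below both controls in each set, at 79.5% to 88.3% of scr in set 2 and at 64.8% to 83.7% in set 3. Of 11026 genes that averaged 50 units or more, 6.53% had all 8 knockdown libraries below the scr of their set, as Bmp4 did, and 2.84% had them below both controls. The knockdowns of a set share its 1 scr library, and SP and 3p may share siRNAs. The controls did not coincide either: luciferase siRNA was at 87.6% of its scr and untreated cells at 129%.

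With the set as a block, Bmp4 was lower by 0.46 on the log2 scale for SP (95% interval −0.69 to −0.23; limma adjusted p = 0.0703), by 0.46 for 3p (−0.69 to −0.23; adjusted p = 0.0971), by 0.25 for 5p (−0.48 to −0.02; adjusted p = 0.276) and by 0.37 for SATS (−0.60 to −0.14; adjusted p = 0.0844). None passed the threshold. Without the block the intervals ran from −2.37 to 1.45 for SP, since the sets differed in level by far more than the siRNAs. The interval for 5p minus 3p included 0 with the block (0.21, −0.02 to 0.44).

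Markers of mESCs moved beside Bmp4. Of the 10 markers, 8 were lower in SP (median log2 change −0.27), 9 in 3p (−0.25), 7 in SATS (−0.17) and 5 in 5p (−0.03), beside medians of all genes of 0.00, 0.00, 0.00 and 0.01. With the block, 1 of them passed in SP and in SATS, Tfcp2l1, a transcription factor of naive cells that fell by 0.50 and by 0.58 (limma adjusted p = 0.019 and 0.0131), and 1 in 3p, the growth factor Fgf4, which fell by 0.88 (limma adjusted p = 0.00937). Over sets 1 to 3, 9 of the 10 were lower in SP (median −0.50). In 5p against 3p, 9 of the 10 were higher (median 0.145, beside 0.016 over all genes). Fgf4 passed there with the block, higher in 5p by 0.97 (limma adjusted p = 8.8e-04). Of all genes, 0.746% (SP), 0.285% (3p), 2.64% (SATS) and 3.26% (5p against 3p) passed with the block. The markers and Bmp4 did not move together everywhere. In set 3 the summed markers were at 34270 in SATS and 36050 in 5p, beside 34260 in scr, though Bmp4 was below scr in both. In set 1 the sum was 69280 in scr and 35890 to 52690 in SP, where Bmp4 was at 84.0% to 156% of scr. The part of these markers in the level of Bmp4 was not tested.

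The call for Bmp4 rested on which libraries entered. When the 4 scr and SP libraries of sets 2 and 3 were fitted on their own with the block, a fit with 1 residual degree of freedom chosen after the data were seen, Bmp4 passed at −0.46 (limma adjusted p = 0.00227), as 3.33% of 15274 genes did. It was the single member called there. With so few degrees of freedom, limma takes the spread mostly from all genes. The p-value of this fit therefore says little about the spread of Bmp4 itself. The log2 ratios of SP to scr for Bmp4 were −0.331 in set 2 and −0.589 in set 3. In set 1 Bmp4 was at 355 in scr and at 555, 360 and 298 in SP 1a, 1b and 1c, counted from 37 to 118 reads. The scr value lay within the range of the SP libraries. Over sets 1 to 3 the change was −0.24 (−0.63 to 0.14 with the block; limma adjusted p = 0.759).

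Bmpr1a (chr14:34410734-34503341, minus strand) encodes a type I BMP receptor and overlaps exonic bases of the antisense gene Gm17110. Its values were 1639 in scr, 1510 in SP, 1582 in 3p, 1724 in 5p, 1894 in SATS and 1446 in untreated cells of set 2, and 1932 in scr, 2164 in SP, 2212 in 3p, 1861 in 5p, 2211 in SATS and 1986 in luciferase of set 3. Against scr, SATS was at 115.5% in set 2 and at 114.4% in set 3, while SP and 3p were below scr in set 2 and above it in set 3. With the block, the change for SATS was 0.20 (−0.01 to 0.41; limma adjusted p = 0.279) and those for SP, 3p and 5p were 0.02, 0.07 and 0.01. In set 1 the scr library had 1286 and the SP libraries 1288 to 1490.

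Smad6 (chr9:63953076-64022059, minus strand), the inhibitory Smad that BMP signalling induces, was the lowest per kilobase after Id4. Its value stood at 165 in scr, 191 in SP, 165 in 3p, 169 in 5p, 160 in SATS and 219 in untreated cells of set 2. In set 3 it was at 117 in scr, 104 in SP, 115 in 3p, 123 in 5p, 87.0 in SATS and 102 in luciferase. Knockdown and control values overlapped in both sets. Against scr, SATS was at 96.7% in set 2 and at 74.6% in set 3. The change for SATS with the block was −0.23 (−0.53 to 0.06; limma adjusted p = 0.382), and those for SP, 3p and 5p lay between −0.01 and 0.05. Set 1 gave 200.9 in scr and 131.9 to 217.4 in SP, from 27 to 41 reads.

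Id1 (chr2:152736251-152737410, plus strand), a single-exon gene and a direct target of BMP Smads, was at 910 in scr, 807 in SP, 894 in 3p, 832 in 5p, 721 in SATS and 1077 in untreated cells of set 2. Set 3 had 804 in scr, 772 in SP, 873 in 3p, 903 in 5p, 874 in SATS and 743 in luciferase. Thus the 4 knockdowns of set 2 lay below both controls, whereas those of set 3 surrounded the scr value. The share of all genes with the knockdowns of set 2 below both controls was not determined. The order of these libraries is therefore given as a description only. With the block the changes were −0.12 for SP (−0.33 to 0.10), 0.05 for 3p (−0.17 to 0.26), 0.02 for 5p (−0.20 to 0.23) and −0.11 for SATS (−0.32 to 0.11). In set 1 the SP libraries, at 935, 1425 and 652, lay on both sides of scr at 864.

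Id2 (chr12:25093799-25097140, minus strand) is a further Id gene among the BMP targets. It had 596 in scr, 522 in SP, 495 in 3p, 577 in 5p, 618 in SATS and 610 in untreated cells of set 2, and 509 in scr, 521 in SP, 496 in 3p, 523 in 5p, 634 in SATS and 469 in luciferase of set 3. Against scr, SATS was at 103.8% in set 2, near untreated cells at 102.5%, and at 124.6% in set 3. The 3p library was below scr in both sets. The changes with the block were 0.19 for SATS (−0.01 to 0.38; limma adjusted p = 0.282) and −0.15 for 3p (−0.34 to 0.04; limma adjusted p = 0.586). Set 1 had 415 in scr and 414, 605 and 443 in SP.

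Id3 (chr4:136143497-136145755, plus strand) is a BMP target that is often expressed together with Id1. In set 2 it was at 904 in scr, 801 in SP, 855 in 3p, 856 in 5p, 758 in SATS and 1175 in untreated cells. In set 3 it was at 612 in scr, 636 in SP, 721 in 3p, 826 in 5p, 695 in SATS and 597 in luciferase. Every knockdown of set 2 was below both controls of that set, and every knockdown of set 3 was above both of its controls. Of the 11026 genes, 0.925% lay below scr in set 2 and above it in set 3 in this way, and 0.127% did so against both controls. The difference between the sets was not tested.

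For Id3 the changes averaged over the sets were therefore small: −0.06 for SP, 0.08 for 3p, 0.18 for 5p and −0.03 for SATS, with paired intervals of −0.29 to 0.17, −0.15 to 0.31, −0.05 to 0.41 and −0.26 to 0.19. In set 1 Id3 was at 248 in scr and at 475, 627 and 459 in SP, which is 185% to 253% of scr. The scr value of set 1 rested on 37 reads. Over sets 1 to 3 the change was 0.32 (−0.24 to 0.87 with the block; limma adjusted p = 0.762).

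Id4 (chr13:48261228-48266026, plus strand), the Id gene best known from the nervous system, had few reads, some of which may belong to overlapping genes of the other strand. Its values were 13.7 to 21.5 in set 2 and 17.5 to 25.4 in set 3, from 30 to 69 reads. In set 1 it had 60.3 in scr from 9 reads (95% Poisson interval 4.12 to 17.1 reads), and 14.1, 19.3 and 16.1 in SP from 3, 6 and 2 reads. No fold was taken from set 1 alone for Id4, and over sets 1 to 3 its change for SP was −0.68 (−1.70 to 0.34 with the block). Without set 1 it was −0.12, and edgeR with the block over the 3 sets gave −0.31. Among the knockdowns of sets 2 and 3, the paired change farthest from 0 was that for 3p, at −0.35 (−0.88 to 0.18).

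**Figure D2:**
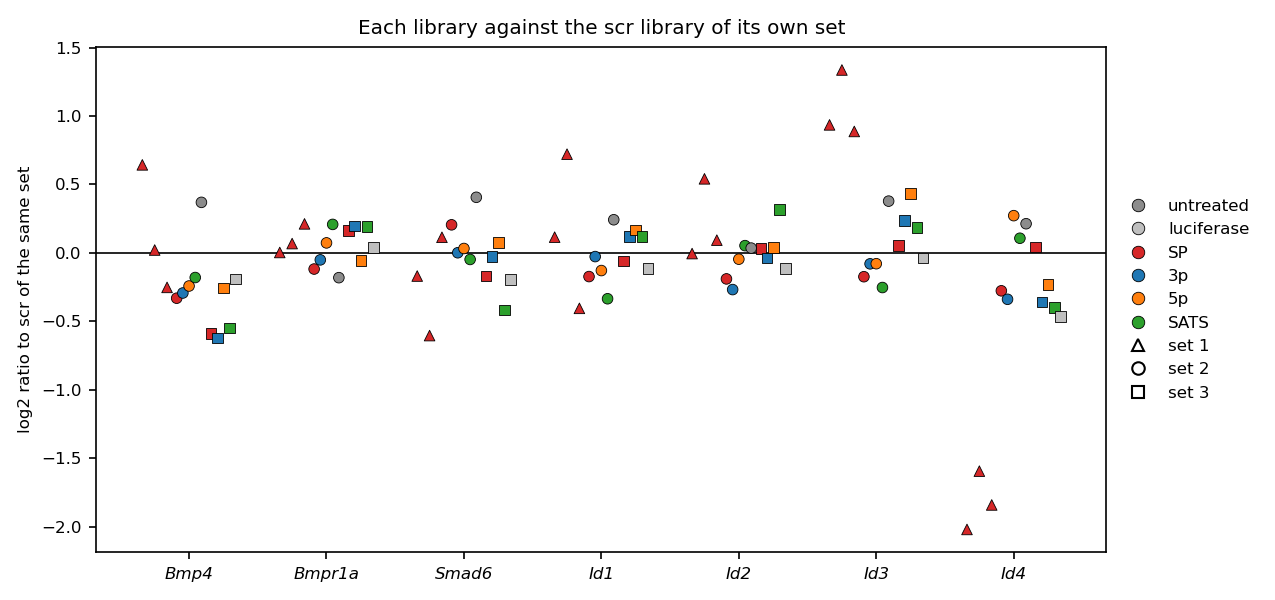
Log2 ratio of each library to the scr library of its own set (vertical axis) for the 7 genes (horizontal axis). Colours mark the siRNA or control and shapes mark the set. For Bmp4 the circles and squares of the knockdowns are all below 0, while for Id3 the circles are below 0 and the squares above it.

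**Figure D3:**
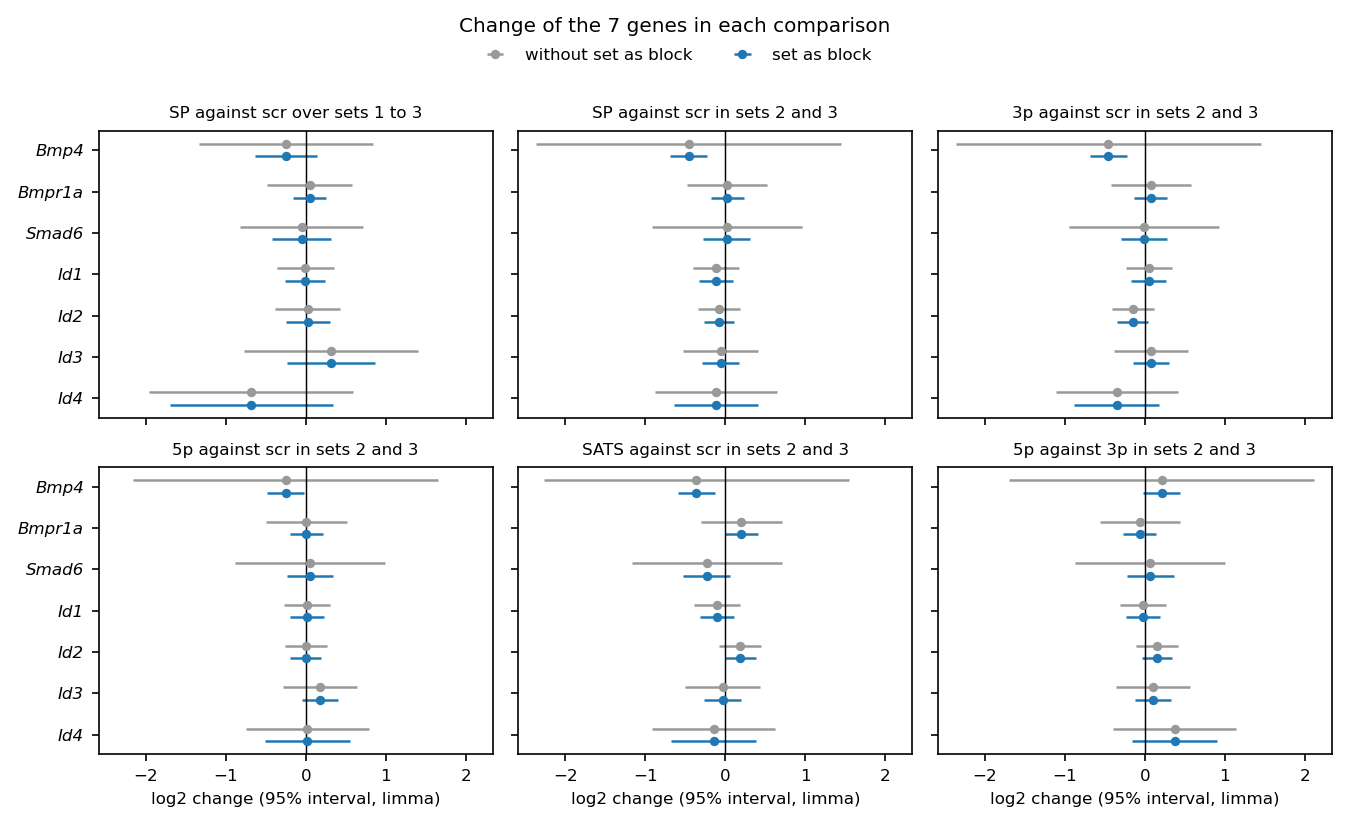
Log2 change with its 95% interval from limma (horizontal axis) for the 7 genes (vertical axis) in 6 comparisons, without the set as a block (grey) and with it (blue). Bmp4 has the largest gap between its grey and blue intervals, and its blue intervals for SP, 3p, 5p and SATS against scr in sets 2 and 3 leave out 0 before adjustment for many genes.

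Ordered by level per kilobase of exon over the 12 libraries of sets 2 and 3, Id1 had 734 ± 81.8 units per kb (SD, n = 12), Id3 615 ± 124, Bmpr1a 305 ± 44.5, Bmp4 227 ± 122, Id2 225 ± 23, Smad6 48.1 ± 13.7 and Id4 5.03 ± 0.913. Bmp4 and Id2 did not differ beyond their spread, and the ranges of Id1 and Id3 overlapped as well. The steps from Id2 to Smad6 and from Smad6 to Id4 exceeded the spread, with the lowest Id2 library at 192 units per kb, the highest Smad6 library at 73.8 and the highest Id4 library at 6.59. Bmp4 varied most for its level, by 4.65-fold between the lowest and the highest of these libraries, and Id2 least, by 1.35-fold.

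Much of that spread lay between sets. In a comparison added after the values were seen, the set term of the paired fit gave set 3 minus set 2 as −1.42 for Bmp4 (−1.56 to −1.27; limma adjusted p = 1.84e-09), −0.64 for Smad6 (adjusted p = 2.86e-05), 0.31 for Bmpr1a (adjusted p = 6.78e-04) and −0.26 for Id3 (adjusted p = 0.00482). These 4 of 7 genes passed where 51.6% of all genes did. Id1 (0.02, −0.11 to 0.16), Id2 (−0.07, −0.19 to 0.06) and Id4 (0.32, −0.02 to 0.65) did not pass, and Stag1 itself moved by −0.01. The summed trophectoderm markers moved with the sets as well, from 10660 to 14410 in set 2 and from 2912 to 5438 in set 3, as did primitive endoderm markers (3992 to 4784 and 1262 to 1625) and the fibroblast markers given above. In these sets the trophectoderm and primitive endoderm sums were mostly 1 gene, Krt18 and Col4a1. The fibroblast sum was mostly Col1a1 in set 2 (1849 to 4627), but not in every library of set 3 (154.5 to 366.9). Without the leading gene, the other 7 genes of each list summed to 1320 to 1648 in set 2 and 666 to 915 in set 3 for trophectoderm. These sums were 281 to 357 and 196 to 266 for primitive endoderm, and 733 to 1196 and 165 to 229 for fibroblast. The medians of these other genes over the 16 libraries ran from 0.604 (Elf5) to 456 units (Tfap2c) for trophectoderm. They ran from 4.54 (Sox17) to 152 (Dab2) for primitive endoderm and from 0.36 (Lum) to 75.9 (Col1a2) for fibroblast. The mESC sums were also lower in set 3 (27680 to 36050) than in set 2 (37520 to 43410). Those of mesoderm (760 to 873 in set 2, 665 to 1009 in set 3) and neural ectoderm (4302 to 5347 and 3022 to 4349) overlapped between the sets. The part of any list in the level of Bmp4 was not tested.

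Within sets 2 and 3, once the mean of each set was taken out, the gene most like Id1 among 11025 genes was Id3, and the gene most like Id3 was Id1 (Pearson's r = 0.928 over 12 libraries, a description without a test). After these came Haus5 (0.893) and Fndc4 (0.880) for Id1, and Pkn3 (0.914) and Tmem222 (0.907) for Id3. Bmp4 was most like Cisd3 (0.939), 1600002H07Rik (0.927) and Prdm14 (0.926), and its r was 0.382 with Id1 and 0.383 with Id3. Id2 stood away from its family, with r = 0.225 to Id1 and 0.295 to Id3, and was most like Tmprss2 (0.935). Bmpr1a was most like Ptbp3 (0.977) and ran against Smad6 (r = −0.722). Smad6 was most like Rara (0.910). The points share sets, depth and the untreated library, in which Bmp4, Smad6, Id1 and Id3 had their highest values of sets 2 and 3 and in which the fibroblast markers were also highest.

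Other genes of the BMP pathway and of the related Nodal and activin pathways were counted in lists written with earlier results known. The ligand list also held Bmp1, a protease, and the list of HLH partners also held the deubiquitinase Usp1. Without the block, 0 genes passed in each of the 6 lists in each comparison. With it, SP and 3p against scr still had 0 called in every list. For 5p, 1 of 15 tested ligands, 0 of 12 receptors and coreceptors, 0 of 14 Smads and their regulators, 1 of 14 extracellular antagonists and modulators, 1 of 20 other BMP targets and 1 of 11 HLH partners passed. For SATS there was 1 of 14 Smads and regulators and 0 in the other lists, and for 5p against 3p 1 antagonist or modulator and 1 target. Counting each gene once, 4 of 83 passed in 5p (4.82%, beside 2.37% of all genes), 1 of 83 in SATS (1.2%, beside 2.64%) and 2 of 83 in 5p against 3p (2.41%, beside 3.26%), so the genes named next are listed as values and nothing is read from their number. The list medians of the log2 change lay between −0.10 and 0.20 for SP, −0.05 and 0.14 for 3p, −0.14 and 0.13 for 5p and −0.10 and 0.04 for SATS, near the medians of all genes given above.

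The ligand called was Gdf6, a growth factor of the BMP family, which fell in 5p by 1.24 (limma with block, adjusted p = 0.0196). It was at 44.9 in scr and 20.04 in 5p of set 2, and at 27.8 and 10.2 in set 3. Gdf6 was also below scr in SP (31.6 and 14.7) and 3p (28.7 and 14.98). These paired changes of −0.68 and −0.74 did not pass (limma adjusted p = 0.27 and 0.303). In SATS it was above scr in set 2 (56.4) and below it in set 3 (15.5). The interval for 5p minus 3p included 0 with the block (−0.51, −1.05 to 0.04). Tll1 encodes a protease that cleaves the BMP antagonist chordin. It fell in 5p by 1.27 (adjusted p = 0.00709, limma with block), from 23.5 to 8.59 in set 2 and from 40.1 to 17.1 in set 3, and was lower in 5p than in 3p (log2 difference −1.139, adjusted p = 0.0114). Both genes were low, and their 5p libraries were the lowest of their sets.

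Tfap2c, an AP-2 transcription factor of germ cells and trophectoderm, fell in 5p by 0.42 (limma with block, adjusted p = 0.0199). It went from 708 to 505 in set 2 and from 414 to 324 in set 3. Tfap2c was also below scr in SP (581 and 360) and 3p (566 and 321). These paired changes of −0.24 and −0.35 did not pass (limma adjusted p = 0.243 and 0.115), and 5p minus 3p was −0.07. SATS was at 681 and 434. Tfap2a, of the same family, was lower in 5p than in 3p by 0.81 (limma with block, adjusted p = 0.0304), at 51.1 against 71.5 in set 2 and 32.8 against 74.0 in set 3. Neurod1, a neurogenic bHLH factor that pairs with E proteins, rose in 5p by 0.85 (limma with block, adjusted p = 0.0113), from 91.9 to 213 in set 2 and from 148 to 210 in set 3. It was also above scr in 3p (140 and 224) and in SATS (158 and 199.7), with paired changes of 0.60 and 0.60 that did not pass (limma adjusted p = 0.144 and 0.0584), and the luciferase library was at 189. Zfp423, a zinc-finger partner of the BMP Smads, fell in SATS by 0.44 (limma with block, adjusted p = 0.0209), from 1138 to 914 in set 2 and from 1295 to 871 in set 3. It was also below scr in SP (1061 and 1019) and 3p (997 and 1089), while 5p was at 1200 and 1271. The other controls were below scr as well, untreated cells at 1095 and luciferase at 1058.

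The most abundant genes of each list per kilobase were Nodal and Gdf3 (ligands), Tdgf1 and Acvr2b (coreceptor and type II receptor), Skil and Smad4, Fstl1 and Twsg1, Dusp9 and Klf2, and Tcf3 and Usp1. None of these 12 was called in any comparison with or without the block. Tcf3, the E protein that the Ids bind, had 774 units per kb and Usp1, a deubiquitinase that stabilizes Id proteins, 563, beside 734 for Id1.

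**Figure D4:**
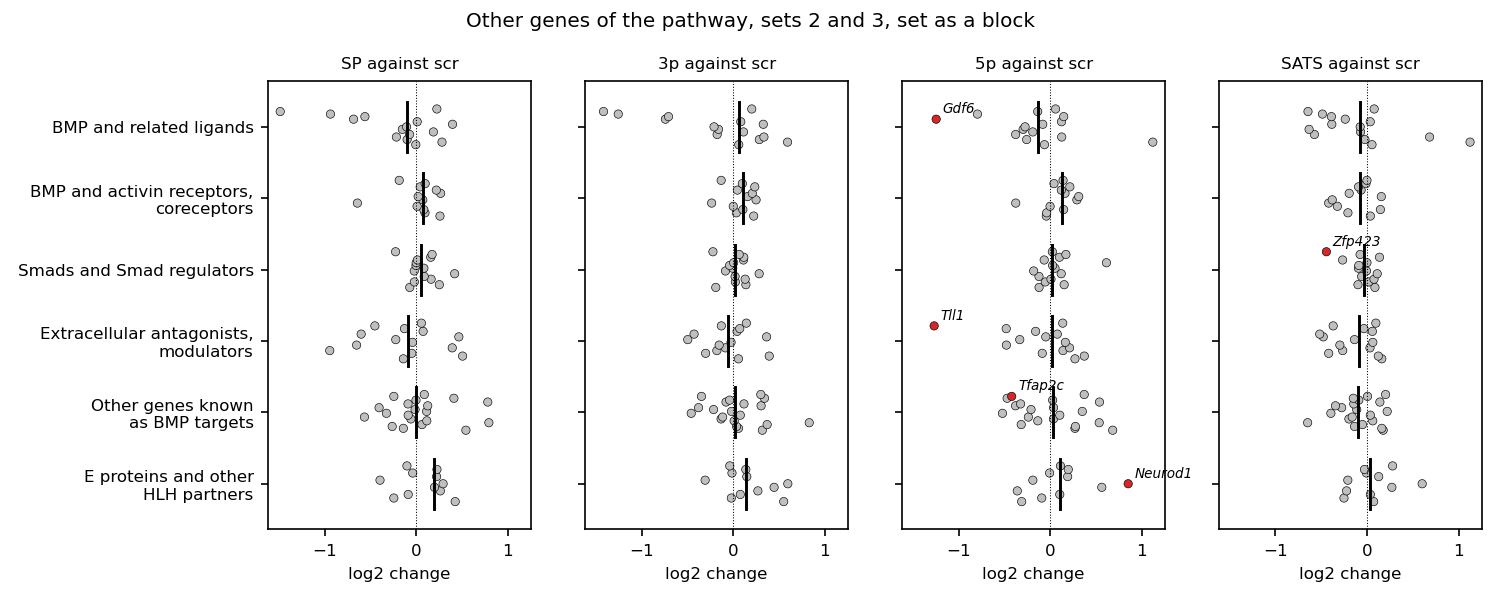
Log2 change (horizontal axis) of the other pathway genes by list (vertical axis) in SP, 3p, 5p and SATS against scr, from limma with the set as a block. Points are genes, red points passed at an adjusted p under 0.05 and black bars are list medians. Red points are the 4 genes named in 5p and Zfp423 in SATS, and none is in SP or 3p.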

How the data were processed

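The 16 libraries of serum-grown mESCs were analysed, and the 2i libraries were left out. The deposited values are a normalized signal: the authors used hisat2 (build mm10) and featureCounts and divided each library's gene counts by its DESeq2 size factor. Within a library all values were whole multiples of the value of 1 read, and 100% of values gave whole reads within 0.05. A second deposited table, CPM of set 1 by the authors, and columns of comparisons were not used.

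From the deposited signal, log2(value + 1) was fitted, for genes whose values summed to 10 or more, with limma 3.58.1 (trend) in R 4.3.3. SP was compared with scr over sets 1 to 3, with SP 1a, 1b and 1c taken as 1 sample by their mean, and the 10 scr, SP, 3p, 5p and SATS libraries of sets 2 and 3 were fitted together. On this scale the change of a weakly expressed gene is understated. Recovered reads were tested with edgeR 4.0.16. Both tools were tested on simulated data. The numbers of the sets pair the samples: deviations of same-numbered libraries from their group means correlated at 0.77 to 0.82 in the SP comparison and at 0.81 to 0.93 in the panel of sets 2 and 3, and each fit was repeated with the set as a block. The alternatives were other pseudocounts and filters, leaving out each set, each SP library of set 1 alone and added controls.

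The members and gene lists were chosen with earlier results of these data known. Genes named beside the members were the 3 most like each, the 2 most abundant per kilobase of each list and all list genes called. Coordinates and exon lengths are those of GENCODE vM21 on GRCm38, and Poisson intervals cover counting error only. Bmp4, Bmpr1a and Id4 share exonic bases with genes on the other strand (Gm15217, Gm17110 and, for Id4, A330033J07Rik and Gm49291). Counting by strand is stated for paired-end samples only, so such reads may be mixed.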

Additional observations from a re-analysis of the deposited data

Results flagged for a closer look

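Bmpr1a in the SP library of set 3 was at 2164, far above the other 4 SP libraries by the gap between it and the next one (0.746 of the range of the 5). The scr library of that set was also high, at 1932. Among exchangeable samples such a gap turns up by chance in about 1 in 20 groups, but 3 of these 5 libraries are of set 1, and Bmpr1a was higher in set 3 than in set 2 in the fit over the 5 siRNA groups (log2 difference 0.31), so that chance does not apply here.

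For Id3 the knockdown libraries of set 2 and set 3 lay on opposite sides of scr. Their mean log2 ratio to scr was −0.147 in set 2, where all 4 were lower, and 0.227 in set 3, where all 4 were higher. The difference was not tested, and the 4 libraries of a set share 1 scr library.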

How the results depend on the processing

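The counts of members called were 0 under every alternative but 1. With the replicate block, in which the set numbers pair the libraries, the genes called rose to 123 (SP), 47 (3p), 391 (5p), 436 (SATS) and 537 (5p against 3p) in sets 2 and 3, and with edgeR and the block to 134, 50, 397, 550 and 529, and to 66 for SP over sets 1 to 3. Without set 1 and with the block, an alternative chosen after seeing the data, SP called 509 genes and 1 member, Bmp4 (−0.46), and Smad6 (0.018), Id2 (−0.078) and Id3 (−0.059) had the other sign. The block changed no other call of a member. With SP library 1a alone for set 1, 1 gene was called, and with untreated and luciferase added to the controls 4 (SP), 2 (3p) and 27 (5p).

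Some log2 changes, none of them called, changed sign. For SP over sets 1 to 3 these were Id1 with edgeR (0.072, and 0.013 with the block), and, when each set was left out in turn, Bmpr1a (−0.01 to 0.13), Smad6 (−0.179 to 0.018), Id1 (−0.116 to 0.079), Id2 (−0.078 to 0.132) and Id3 (−0.059 without set 1 to 0.561). The same was seen with SP 1a alone (Id2, −0.054), 1b alone (Id1, 0.163) and 1c alone (Smad6, 0.05, and Id2, −0.021). In sets 2 and 3 it held for 5p with edgeR (Bmpr1a, −0.004, and Id4, −0.009) and, with the added controls, for Smad6 in SP (−0.035), Id3 in 3p (−0.007) and Id1 and Id2 in 5p (−0.012 and 0.018). The cause was not tested. Leaving out a set of the panel leaves 1 library per group, which gives values and no test.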
